A study of Homo sapiens with 2 samples.

Results

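The genes described here are 10 transcripts of the oxygen response outside glycolysis: the hypoxia-inducible factor (HIF) subunits HIF1A and EPAS1, the prolyl hydroxylases EGLN1 and EGLN3, and the target genes VEGFA, CA9, ADM, BNIP3, NDRG1 and ANKRD37. They were taken by name, not by a rule on their values, from the 58735 genes in the deposited tables, and every member was found. The list was chosen with earlier results of these data known. The tables come from RNA sequencing of BT549 cells, an established human line of triple-negative breast cancer that has a mesenchymal phenotype. The 2 groups were BT549 cells with a short hairpin RNA that lowers the salt-inducible kinase SIK2 (shSIK2) and BT549 cells with a scrambled control hairpin, and both were given the ligand Wnt3a for 2 h. With 1 library in each group, the differences below have no replicate check and were not tested. The number of hairpins or clones and the oxygen level of the cultures are not stated in the labels.

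HIF is a heterodimer of an oxygen-labile alpha subunit (HIF-1 alpha from HIF1A, HIF-2 alpha from EPAS1) and the stable partner ARNT. With oxygen present, the EGLN hydroxylases modify prolines of the alpha subunit, and the VHL ubiquitin ligase then marks it for degradation. When oxygen is low the alpha subunit persists, pairs with ARNT and binds DNA at hypoxia response elements, which share the cores ACGTG and GCGTG. Most of this control acts on the protein, which RNA sequencing does not measure. EGLN1 and EGLN3 are themselves HIF targets and close a feedback loop.

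Reads assigned to genes numbered 16347399 in the shSIK2 library and 18019225 in the scrambled library. The deposited unit, FPKM, is a read count scaled for gene length, here the summed length of all annotated exons. Levels of different genes can be compared only as far as that length matches the transcripts present. A gene counts here as measured if its level reached 1 FPKM in at least the higher library, which held for 12866 genes and for 8 of the 10 members; CA9 and EGLN3 were below it. Log2 ratios are of shSIK2 over scrambled FPKM as deposited plus 0.1, and folds are ratios of reads with a 95% interval for counting error only. SIK2 itself stood at 3.56 FPKM in the shSIK2 library and 7.80 in the scrambled library, 2.19-fold lower (1.99 to 2.42). With both libraries scaled to equal totals SIK2 was 1.987-fold lower. With the GC and length trend removed its log2 ratio was -0.92, so both fell short of 2-fold. The median log2 ratio of all measured genes was -0.11, and scaling both libraries to equal totals adds 0.14 to a log2 ratio, or less where the level is close to the pseudocount. Of 5 mesenchymal markers of the line all were measured, with log2 ratios of 2.30 for SPARC, 0.26 for CAV1, 0.12 for VIM, -0.40 for FN1 and -0.47 for AXL. Of 5 epithelial and hormone receptor markers GATA3 alone was measured (18.6 and 11.5 FPKM in the shSIK2 and scrambled libraries). All leukocyte, endothelial and adipocyte markers were under 1 FPKM. In the shSIK2 and scrambled libraries, 5 leukocyte markers had 32 and 26 reads in all, 5 endothelial markers 2 and 5, and 4 adipocyte markers 8 and 3.

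Promoter windows, from 250 bases before to 50 bases after a RefSeq start site on GRCh38.p14, were given for 8 of the 10 members; VEGFA and NDRG1 are named only. Windows of 4 members are shown because they set the promoter letters beside the expression values that follow: EGLN1 and ADM are the measured members that differed by at least 2-fold, BNIP3 holds the most cores, and CA9 is a widely used marker of tumour hypoxia. They read 5′ to 3′ along the strand of the gene, and capitals mark ACGTG or GCGTG on either strand (CACGT and CACGC when read on the other strand); the run CACGTG is a palindrome and counts as ACGTG on both strands.
EGLN1, chr1:231422238-231422537, minus strand: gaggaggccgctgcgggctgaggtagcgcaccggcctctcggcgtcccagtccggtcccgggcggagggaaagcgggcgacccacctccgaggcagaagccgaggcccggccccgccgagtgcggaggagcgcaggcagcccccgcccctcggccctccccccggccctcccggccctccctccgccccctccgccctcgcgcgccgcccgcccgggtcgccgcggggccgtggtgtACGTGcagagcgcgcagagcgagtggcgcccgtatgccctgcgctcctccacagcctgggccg
ADM, chr11:10304823-10305122, plus strand: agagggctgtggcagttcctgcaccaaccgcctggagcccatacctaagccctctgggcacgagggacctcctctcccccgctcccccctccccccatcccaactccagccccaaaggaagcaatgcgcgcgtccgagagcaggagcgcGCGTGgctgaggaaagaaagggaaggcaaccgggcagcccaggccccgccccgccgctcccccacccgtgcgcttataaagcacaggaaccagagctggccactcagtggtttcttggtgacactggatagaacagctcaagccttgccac
BNIP3, chr10:131981874-131982173, minus strand: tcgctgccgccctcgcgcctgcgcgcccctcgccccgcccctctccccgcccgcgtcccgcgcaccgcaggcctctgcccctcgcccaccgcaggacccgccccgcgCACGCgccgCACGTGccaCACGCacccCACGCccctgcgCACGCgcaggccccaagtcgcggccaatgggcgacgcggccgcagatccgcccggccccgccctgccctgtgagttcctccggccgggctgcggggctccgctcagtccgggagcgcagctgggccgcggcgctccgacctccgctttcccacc
CA9, chr9:35673678-35673977, plus strand: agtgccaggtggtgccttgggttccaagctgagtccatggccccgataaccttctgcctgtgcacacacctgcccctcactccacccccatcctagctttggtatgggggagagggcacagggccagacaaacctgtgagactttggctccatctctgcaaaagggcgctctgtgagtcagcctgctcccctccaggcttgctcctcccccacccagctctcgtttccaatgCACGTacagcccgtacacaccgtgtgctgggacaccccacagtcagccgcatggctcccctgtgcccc

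At least 1 of the cores was in a window of 7 of the 8 members, EGLN3 being the exception, and ACGTG in a window of 4. Of 35116 promoter windows of the same length, 48.4% held either core and 21.4% held ACGTG. These shares count single windows, and the windows were not matched to the members for GC content. Both cores hold the letters CG, and the member windows with a core had a GC content between 62% (CA9) and 80.7% (BNIP3). An excess over other promoters was not tested. BNIP3 had 6 matches and ANKRD37 had 3, in each case with 2 of them the strands of a CACGTG palindrome. Counted in the same way, 10.1% of all windows had 3 or more. EGLN1, CA9, EPAS1 and ADM had 1 match each, and so did 1 of the 2 windows of HIF1A. The match lay 13 bases before the start site in EGLN1, 18 in CA9 and 101 in ADM. BNIP3, with the most matches, had the log2 ratio closest to zero of the measured members. A match is a description of letters and not evidence of binding.

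Among the members, the alpha subunits differed in opposite directions and the main oxygen sensor was lower. HIF1A was higher in the shSIK2 library and EPAS1 lower, each by close to 2-fold as deposited. At equal totals HIF1A was 2.19-fold higher and EPAS1 1.71-fold lower. As deposited, EGLN1 was 2.57-fold lower and ADM 2.85-fold higher, and of the measured members these passed 2-fold on the log2 scale. VEGFA, ANKRD37 and BNIP3 were lower and NDRG1 higher, by less than 2-fold. By count, 1 member was at least 2-fold higher, where 11.0% of all measured genes were, and 1 was at least 2-fold lower, where 8.28% were. At equal totals the counts were 2 (HIF1A and ADM) and 1, beside 13.7% and 5.90% of all genes, and with the GC and length trend removed again 2 and 1, beside 10.7% and 6.74%. At 1.5-fold the counts were 2 higher (ADM and HIF1A) and 4 lower (EGLN1, EPAS1, VEGFA and ANKRD37), beside 19.7% and 21.3% of all measured genes; ANKRD37 passed the minimum through the scrambled library alone, where it is higher. The log2 ratios of the 8 measured members lay between -1.36 and 1.49, with a median of -0.46. The sign of that median turned without the minimum, at 0.081 over all 10 members. In a bulk culture, fewer cells with a transcript and less transcript per cell cannot be told apart.

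**Figure D1:**
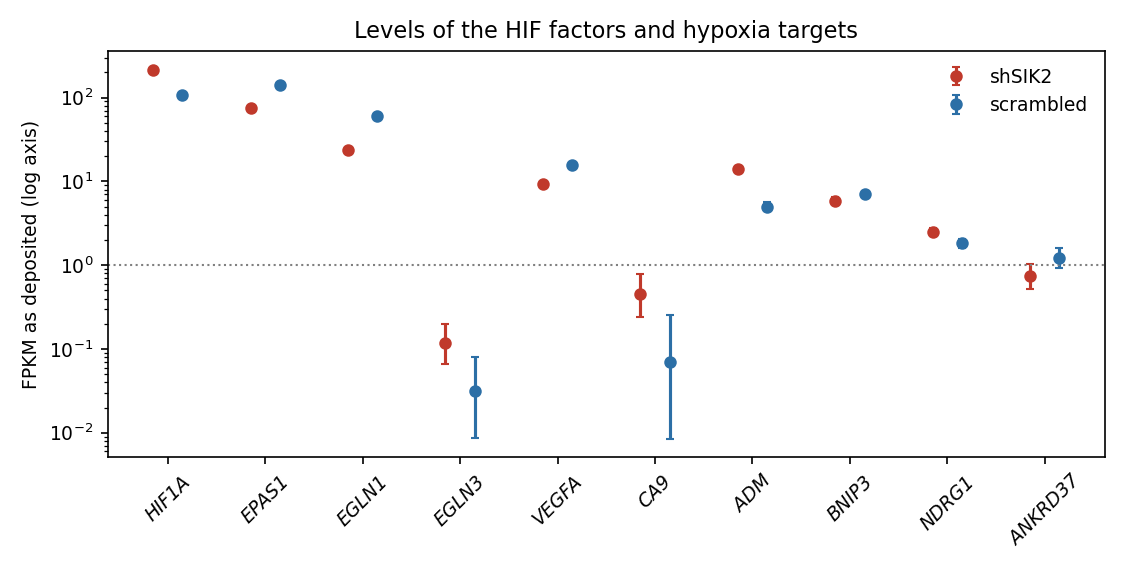
Level of each gene in FPKM as deposited (log axis) in the shSIK2 library (red, left) and the scrambled library (blue, right), with 1 library per group; bars are exact 95% Poisson intervals and the dotted line is the minimum of 1 FPKM. HIF1A (215.2 and 108.1 FPKM) and EPAS1 (74.9 and 141 FPKM) change places, while CA9 and EGLN3 lie below the minimum in both libraries.

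HIF1A (ENSG00000100644, GRCh38 chromosome 14, 61695513 to 61748259), which encodes HIF-1 alpha, stood at 215.2 FPKM in the shSIK2 library and 108.1 FPKM in the scrambled library. These were 19029 and 9559 reads, a 1.99-fold difference (1.94 to 2.04). It was the 114th most abundant of the measured genes in the shSIK2 library and the 299th in the scrambled library. Its log2 ratio of 0.99 was just short of 2-fold as deposited and reached 1.13 at equal totals; 11.1% of measured genes had a ratio at least as high. Its transcripts have a GC content of 38.9%, and genes of like GC content had a median log2 ratio of -0.31, so HIF1A lay on the other side of zero from its GC class.

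EPAS1 (ENSG00000116016, chromosome 2, 46293667 to 46386703), which encodes HIF-2 alpha, stood at 74.9 FPKM in the shSIK2 library and 141 FPKM in the scrambled library. With 9389 and 17675 reads it was 1.88-fold lower (1.84 to 1.93), or 1.71-fold at equal totals. On the deposited scale 10.2% of measured genes were at least as low. The more abundant alpha transcript was therefore HIF1A in the shSIK2 library and EPAS1 in the scrambled library. The HIF1A level was 2.87 times that of EPAS1 in the shSIK2 library (2.80 to 2.95) and 0.77 times in the scrambled library (0.75 to 0.79). That quotient, which library scaling cannot move, differed by a factor of 3.75 (3.62 to 3.88). Summed, both alpha transcripts came to 290.2 FPKM in the shSIK2 library and 249.2 FPKM in the scrambled library, and HIF1A made up 74.2% and 43.4% of that sum.

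ARNT, the shared partner, was lower as well, with 9.11 FPKM in the shSIK2 library and 17.8 FPKM in the scrambled library (1.96-fold lower, 1.82 to 2.11). At equal totals ARNT was 1.78-fold lower. EPAS1 and ARNT thus differed by nearly the same amount: the EPAS1 level was 8.22 times that of ARNT in the shSIK2 library (7.71 to 8.77) and 7.91 times in the scrambled library (7.55 to 8.28). HIF1A was 23.6 times as abundant as ARNT in the shSIK2 library and 6.06 times in the scrambled library. The remaining subunits were at the edge of detection. HIF3A had 0 and 2 reads, and ARNT2 had 15 and 0 reads, in the shSIK2 and scrambled libraries.

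EGLN1 (ENSG00000135766, chromosome 1, 231363751 to 231425044), which encodes PHD2, the main HIF prolyl hydroxylase in most cells, stood at 23.8 FPKM in the shSIK2 library and 61.1 FPKM in the scrambled library. With 2963 and 7614 reads it was 2.57-fold lower (2.46 to 2.68), or 2.33-fold at equal totals. Of the measured genes, 544 (4.23%) were at least as low. Relative to HIF1A, the EGLN1 level was 0.11 in the shSIK2 library and 0.56 in the scrambled library, a 5.12-fold lower quotient (4.87 to 5.37). Relative to EPAS1 it was 0.32 and 0.43, a 1.36-fold lower quotient (1.30 to 1.43).

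Most genes around EGLN1 were low too. Within 1 Mb there were 14 other measured genes, 7 of them lower by 2-fold or more and 1 higher, where 8.28% and 11.0% of all measured genes were. Their median log2 ratio was -1.0. Of the 7, the pseudogene AL732414.1 rests on 1 and 13 reads in the shSIK2 and scrambled libraries and passed the minimum through the scrambled library alone. SPRTN, the nearest of them, was 2.09-fold lower (1.90 to 2.31), TSNAX 2.19-fold (2.04 to 2.35) and SIPA1L2 2.78-fold (2.59 to 2.99). AGT and ARV1 differed the other way, AGT 4.28-fold higher (3.38 to 5.48) and ARV1 1.41-fold higher (1.29 to 1.55). Within 3 Mb, 14 of 40 genes were at least 2-fold lower and 5 higher, with a median of -0.63. All these counts are on the deposited scale. TTC13, SPRTN, AL445524.1 and TSNAX, among the 7 within 1 Mb, had log2 ratios between -1.05 and -1.12. The shift of 0.14 at equal totals brings each of them short of 2-fold, and 5.90% of all genes were 2-fold lower on that scale. These neighbours were named after their values were seen, and the part of the chromosomal region in the EGLN1 ratio was not tested. Around the other members the median within 1 Mb lay between -0.69 (HIF1A, 7 genes) and 0.20 (CA9, 28 genes); within 3 Mb these became -0.22 (26 genes) and -0.28 (74 genes). HIF1A was thus above its neighbourhood median, and EGLN1 below one that was itself low.

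**Figure D2:**
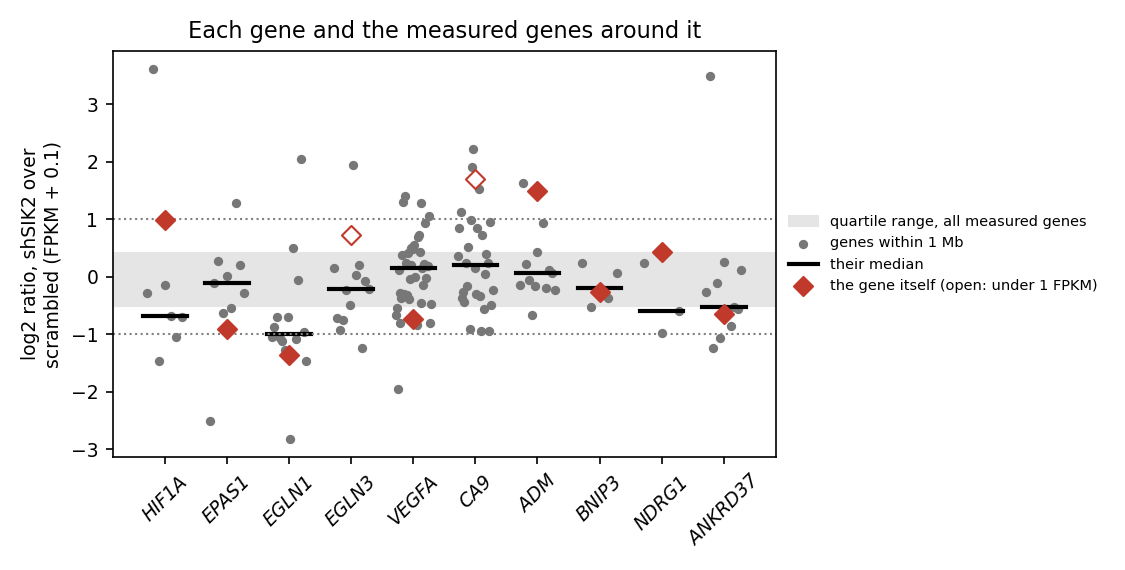
Log2 ratio of shSIK2 over scrambled (FPKM plus 0.1, 1 library per group) for each of the 10 genes (diamond) and for the other measured genes within 1 Mb (grey points, in order of distance from left to right), with their median as a bar; the grey band is the quartile range of all measured genes. The EGLN1 neighbourhood has a median of -1.0, whereas HIF1A at 0.99 lies above a neighbourhood median of -0.69.

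EGLN3 (ENSG00000129521, chromosome 14, 33924231 to 34462774), the strongly hypoxia-inducible hydroxylase PHD3, was barely present, with 0.12 FPKM in the shSIK2 library and 0.032 FPKM in the scrambled library. Its 15 and 4 reads gave a ratio of 3.75 (1.20 to 15.5). EGLN2, the third hydroxylase of the family, lay just under the minimum at 0.98 FPKM in the shSIK2 library and 0.91 FPKM in the scrambled library. EGLN1 was thus by far the most abundant EGLN transcript in both libraries.

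Of the rest of the oxygen-sensing and degradation machinery, 9 of 10 listed genes other than EGLN1 and EGLN3 were measured. None of them differed by 2-fold, where 11.0% of all measured genes were that much higher and 8.28% lower. VHL, which recognises hydroxylated HIF alpha, came closest at 31.3 FPKM in the shSIK2 library and 62.2 FPKM in the scrambled library (1.99-fold lower, 1.89 to 2.09). At equal totals VHL was 1.80-fold lower. ELOC, its elongin C partner, was 1.62-fold lower (1.5 to 1.75), and SIAH1, a ubiquitin ligase that targets EGLN proteins, 1.83-fold lower (1.56 to 2.16). The remaining members of the VHL complex were nearly level: ELOB stood at 54.6 and 57.3 FPKM, CUL2 at 45.5 and 45.4 FPKM, and RBX1 at 6.33 and 6.09 FPKM in the shSIK2 and scrambled libraries. HIF1AN, the asparagine hydroxylase that blocks coactivator binding, was 1.49-fold lower (1.37 to 1.62). The median of the 9 genes was -0.57, and -0.18 over 10 measured genes at equal totals, where EGLN2 also passed the minimum.

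Among 9 coactivators and feedback regulators of HIF, 8 were measured. Their median log2 ratio was -0.56, and 1 gene passed 2-fold in each direction, where 11.0% of all measured genes passed it upward and 8.28% downward. EP300, the p300 acetyltransferase, was 1.74-fold lower (1.62 to 1.86), and CITED2, which competes with HIF for p300, 1.93-fold lower (1.82 to 2.05). At equal totals EP300 was 1.57-fold and CITED2 1.75-fold lower. MXI1, a MYC antagonist induced by HIF, was 2.08-fold lower (1.83 to 2.37), short of 2-fold at equal totals and with the GC and length trend removed. BHLHE40, a hypoxia-induced repressor also known as DEC1, was 3.13-fold higher (2.75 to 3.57), with 14.4 FPKM in the shSIK2 library and 4.62 FPKM in the scrambled library.

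ADM (ENSG00000148926, chromosome 11, 10304680 to 10307397), which encodes the vasodilator peptide adrenomedullin, stood at 14.2 FPKM in the shSIK2 library and 4.99 FPKM in the scrambled library. With 663 and 233 reads it was 2.85-fold higher (2.45 to 3.32), and 773 of the measured genes (6.01%) had a ratio at least as high. Its 13 measured neighbours within 1 Mb had a median of 0.07. Of 6 related ligands and receptors 4 were measured. Among these 4, 2 were at least 2-fold higher and 1 lower, beside 11.0% and 8.28% of all measured genes. RAMP1 and RAMP2, receptor activity-modifying proteins that shape adrenomedullin and CGRP receptors, were 2.40-fold (2.13 to 2.70) and 4.50-fold (2.06 to 11.2) higher, the RAMP2 ratio resting on 36 and 8 reads. RAMP2 passed the minimum through the shSIK2 library alone, and the log2 ratio of RAMP1 was 0.66, short of 2-fold, with the GC and length trend removed. ADM2, the intermedin ligand, was 2.04-fold lower (1.82 to 2.30), short of 2-fold at equal totals. CALCRL, the receptor subunit that RAMP proteins pair with, had 7 reads in the shSIK2 library and 4 in the scrambled library.

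VEGFA (ENSG00000112715, chromosome 6, 43770184 to 43786487), the main angiogenic growth factor under HIF control, differed in the other direction from ADM. It stood at 9.36 FPKM in the shSIK2 library and 15.7 FPKM in the scrambled library, 2318 and 3888 reads, 1.68-fold lower (1.59 to 1.77). The ADM level was 1.52 times that of VEGFA in the shSIK2 library and 0.32 times in the scrambled library, a factor of 4.77 (4.08 to 5.59). Both levels divide by all annotated exons, 2718 bases for ADM and 14431 for VEGFA. The factor between the libraries does not depend on these lengths. Of 9 other VEGF ligands and receptors 5 were measured. Among these 5, 1 was at least 2-fold higher and 0 lower, beside 11.0% and 8.28% of all measured genes. At equal totals 3 were higher and 0 lower, beside 13.7% and 5.90%. PGF, placental growth factor, was 2.57-fold higher (2.25 to 2.95), and the co-receptors NRP1 and NRP2 were 1.96-fold (1.88 to 2.05) and 1.94-fold (1.76 to 2.15) higher, both past 2-fold at equal totals. VEGFB was 1.39-fold higher (1.27 to 1.53) and VEGFC 1.66-fold lower (1.27 to 2.19); these were not picked by the naming rule. The signalling receptors FLT1 and KDR had 0 reads and 0 reads in the shSIK2 library, against 0 and 3 in the scrambled library.

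CA9 (ENSG00000107159, chromosome 9, 35673856 to 35681159), a tumour carbonic anhydrase that is nearly silent in oxygenated cells, was close to absent. It had 13 reads in the shSIK2 library (0.45 FPKM) and 2 in the scrambled library (0.070 FPKM), a ratio of 6.50 with an interval from 1.47 to 59.3. Exons of ARHGEF39 on the other strand cover 38.5% of its exonic bases; whether reads were counted by strand is not given, so CA9 counts are uncertain. Among the 14 other carbonic anhydrases 4 were measured. Of these, 2 were at least 2-fold higher and 0 lower, beside 11.0% and 8.28% of all measured genes. The 2 were CA11, a catalytically inactive relative, 3.37-fold (2.89 to 3.93), and CA4, a membrane-anchored enzyme, 2.54-fold (2.18 to 2.97). CA12, the other hypoxia-linked surface enzyme of tumours, was 1.57-fold higher (1.46 to 1.69), with 14.99 FPKM in the shSIK2 library and 9.54 FPKM in the scrambled library. CA5B, the remaining measured one, differed the other way, 1.30-fold lower (1.04 to 1.62), or 1.18-fold at equal totals.

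BNIP3 (ENSG00000176171, chromosome 10, 131966455 to 131982013), a mitophagy receptor of the outer mitochondrial membrane, differed least of the measured members. It stood at 5.91 FPKM in the shSIK2 library and 7.17 FPKM in the scrambled library, 540 and 655 reads, 1.21-fold lower (1.08 to 1.36). That interval leaves out the difference in library totals. At equal totals BNIP3 was 1.1-fold lower, a log2 ratio of -0.14 against a median of 0.04 for all measured genes on that scale. Its relative BNIP3L was 1.25-fold lower (1.19 to 1.32), and the BNIP3 level was 0.19 times that of BNIP3L in the shSIK2 library and 0.18 times in the scrambled library. None of the 6 mitophagy receptors differed by 2-fold, where 11.0% of all measured genes were that much higher and 8.28% lower. BCL2L13 was lowest at 1.66-fold lower (1.56 to 1.77), and PHB2 was 1.16-fold lower (1.11 to 1.20). BNIP3 has 39 annotated pseudogenes, which held 12 reads in all in the shSIK2 library and 12 in the scrambled library.

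NDRG1 (ENSG00000104419, chromosome 8, 133237171 to 133302022), a stress-responsive gene and a common transcriptional marker of hypoxia, stood at 2.49 FPKM in the shSIK2 library and 1.82 FPKM in the scrambled library. With 420 and 306 reads it was 1.37-fold higher (1.18 to 1.60), and 24.3% of measured genes had a ratio at least as high. NDRG3 was 1.57-fold higher (1.46 to 1.69) and more abundant, at 34.6 FPKM in the shSIK2 library and 22.1 FPKM in the scrambled library. NDRG2 and NDRG4 were below the minimum.

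ANKRD37 (ENSG00000186352, chromosome 4, 185396021 to 185400628), an ankyrin repeat protein induced through HIF, had 33 reads in the shSIK2 library (0.75 FPKM) and 54 in the scrambled library (1.22 FPKM). The 1.64-fold lower ratio has an interval from 1.04 to 2.61 that nearly reaches no difference. That interval leaves out the difference in library totals, and at equal totals ANKRD37 was 1.485-fold lower. Exons of UFSP2 on the other strand cover 35.2% of its exonic bases, so its counts are uncertain in the same way as those of CA9.

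**Figure D3:**
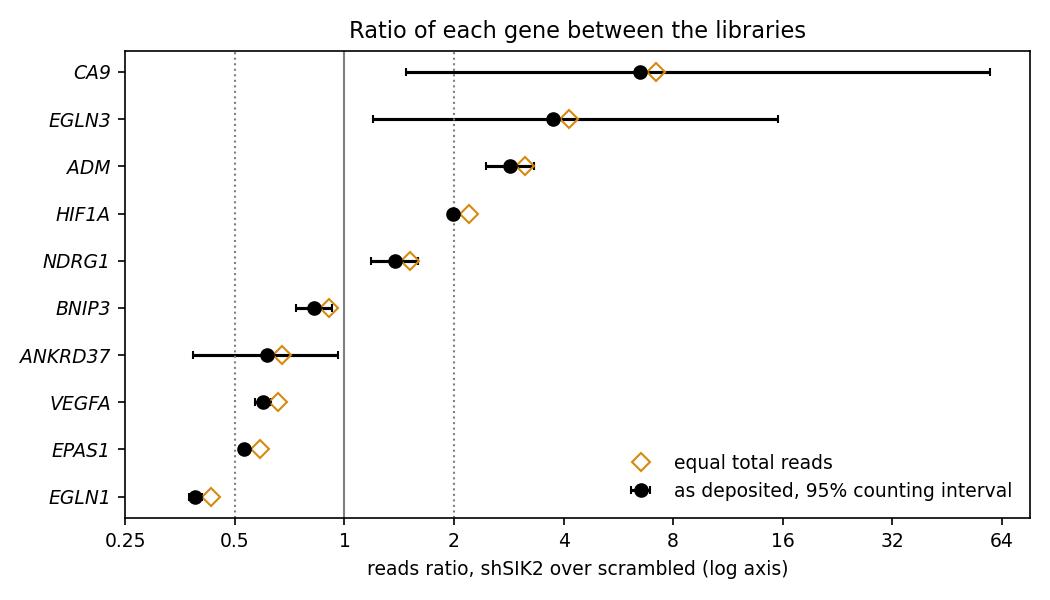
Ratio of reads, shSIK2 over scrambled (log axis, 1 library per group), for the 10 genes in order of size; black points are the deposited scale with exact 95% counting intervals, open diamonds are equal total reads, and dotted lines mark 2-fold. EGLN1 is lowest at 0.39 and ADM is the highest of the genes above 1 FPKM at 2.85; CA9 and EGLN3 have wide intervals from few reads.

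Ordered by level, the members ran HIF1A, EPAS1, EGLN1, ADM, VEGFA, BNIP3, NDRG1, ANKRD37, CA9 and EGLN3 in the shSIK2 library. In the scrambled library the order was EPAS1, HIF1A, EGLN1, VEGFA, BNIP3, ADM, NDRG1, ANKRD37, CA9 and EGLN3. HIF1A, EPAS1 and EGLN1 were the most abundant members in both libraries, EGLN1 at 1.67 times the level of ADM in the shSIK2 library and 3.89 times that of VEGFA in the scrambled library. Neighbours in the order had separate counting intervals except ANKRD37 and CA9 in the shSIK2 library and CA9 and EGLN3 in the scrambled library. By FPKM, ADM passed VEGFA and BNIP3 in the shSIK2 library, and HIF1A passed EPAS1. The order depends on the exon lengths used, 2718 bases for ADM, 14431 for VEGFA and 5325 for BNIP3. By reads in the shSIK2 library VEGFA stayed above ADM, with 2318 against 663. ADM was above BNIP3 by reads as well, with 663 against 540, and HIF1A above EPAS1, with 19029 against 9389.

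The wider set of hypoxia targets outside glycolysis was mixed. Of 32 further listed genes 26 were measured. Their median log2 ratio was 0.09, and 2 of them passed 2-fold upward, 1 downward and 23 neither way, where 11.0% of all measured genes passed it upward and 8.28% downward. P4HA2, a collagen prolyl hydroxylase, was 2.74-fold higher (2.48 to 3.03), and ANGPTL4, a secreted lipase inhibitor, 2.55-fold higher (2.12 to 3.09). STC2, the glycoprotein stanniocalcin 2, was 2.22-fold lower (2.14 to 2.31). NDUFA4L2, a mitochondrial protein strongly induced by HIF in other cells, was 2.08-fold lower by reads (1.47 to 2.98), with a log2 ratio of -0.99. At equal totals 5 of these genes passed 2-fold upward and 1 downward, and with the GC and length trend removed 3 and 3, where ANGPTL4 was at 0.96 on the log2 scale.

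Glycolytic HIF targets, are given here to place the members. Of 20 listed genes 18 were measured. Their median log2 ratio was 0.41. Of these, 5 passed 2-fold upward and 0 downward, beside 11.0% and 8.28% of all measured genes, and 3 passed it upward with a pseudocount of 1 FPKM. SLC16A3, a lactate exporter, was 4.41-fold higher, PFKFB4 4.32-fold and ALDOC 4.06-fold, and GAPDH 2.07-fold. PFKFB4 passed the minimum through the shSIK2 library alone, and GAPDH was at 0.94 on the log2 scale, short of 2-fold, with the GC and length trend removed. PGK1 and ENO1, which HIF-1 also induces, were at 51.4 and 733 FPKM in the shSIK2 library and 49.9 and 808.9 FPKM in the scrambled library; the naming rule did not pick them. Over the 109 genes of the pathway lists that are not members, 79 were measured. Their median was 0.06; 13 passed 2-fold upward and 3 downward as deposited, beside 11.0% and 8.28% of all measured genes, and 19 and 1 did so at equal totals, beside 13.7% and 5.90%.

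**Figure D4:**
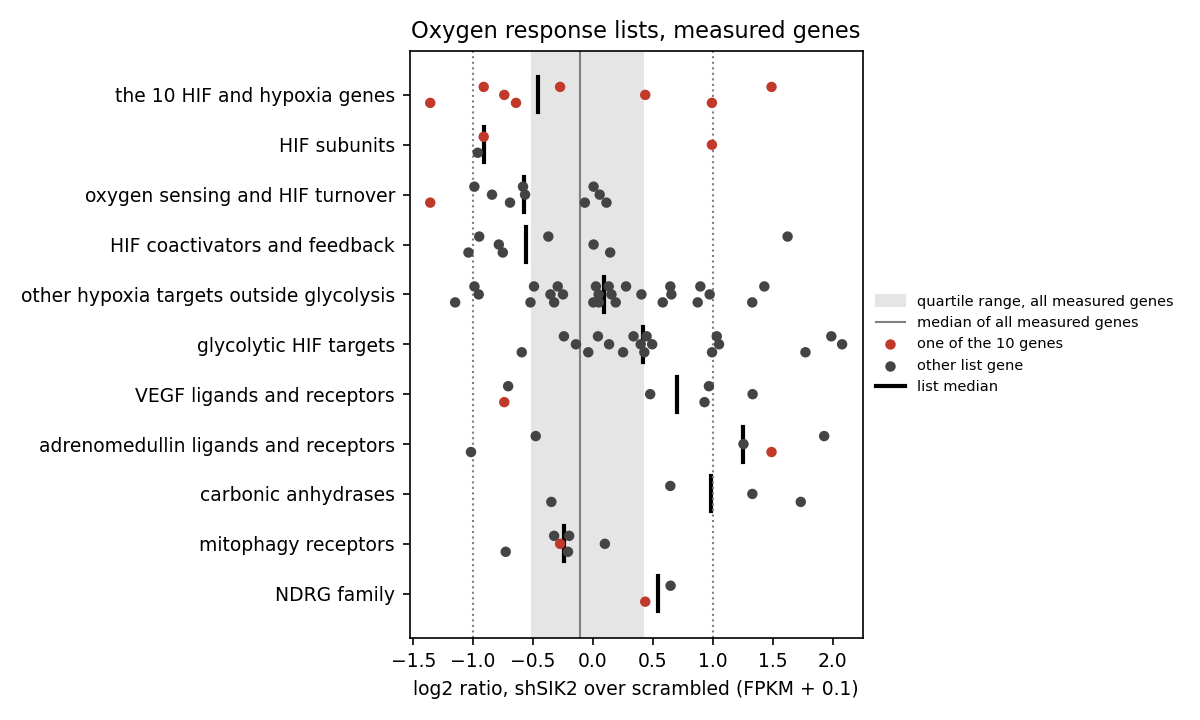
Log2 ratio of shSIK2 over scrambled (FPKM plus 0.1, 1 library per group) for the measured genes of each list, with the list median as a bar; red points are the described genes that were measured, the grey band is the quartile range of all measured genes and dotted lines mark 2-fold. The subunit, oxygen-sensing and coactivator lists have medians between -0.91 and -0.56, and glycolytic HIF targets one of 0.41. The subunit list has 3 measured genes (HIF1A, EPAS1 and ARNT), so its median is the EPAS1 value, with HIF1A at 0.99. EGLN1 is part of the oxygen-sensing list.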

How the data were processed

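Per the labels' protocols, RNA was extracted with Trizol and sequenced on libraries made by a standard Illumina method. The submitters' processing notes list HISAT2 2.0.5 and hg18. How reads were counted, against which annotation and with which strand setting is not given in the sources used. Per the file headers, the authors deposited FPKM for 58735 Ensembl genes in each of 2 tables. Every identifier was found in GENCODE release 29 (GRCh38), the source of the symbols, exon lengths and gene coordinates printed here. That build differs from the one in the notes, and which was aligned to is not settled. FPKM times exon length gave whole multiples of 1 step in 100% of values above 0 (tolerance 0.001), taken as reads. The step was the same in both tables, so the deposited FPKM values are not scaled to each library's own total.

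The members and the 10 pathway lists were chosen with earlier results of these data known. Ratios used a pseudocount of 0.1 FPKM, which understates the ratio of low genes, a minimum of 1 FPKM in the higher library and a 2-fold limit. Intervals of folds were exact (Clopper-Pearson, conditional on the sum, 95%), those of levels exact Poisson, and those of quotients between genes came from a normal approximation on the log scale. Without molecular identifiers reads are not independent molecules, and all intervals cover counting error only. Trends with GC content and length were taken out with the medians of 20 bins of each. Named genes were the members, SIK2, and, per list, up to 4 measured genes of largest absolute log2 ratio; others named were chosen after their values were seen. Promoter windows came from RefSeq on GRCh38.p14. The calculations were tested on simulated data. Scripts ran in Python 3.11.15 using pandas 2.3.3, scipy 1.17.1, numpy 2.4.6 and, for plots, matplotlib 3.10.9.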

Additional observations from a re-analysis of the deposited data

How the results depend on the processing

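No paired analysis was possible because each group has 1 library, and no library could be left out. The measured members kept the sign of their log2 ratio under a pseudocount of 1 or 0.01 FPKM, equal totals and removal of the GC and length trend, with ADM between 1.30 and 1.63, EGLN1 between -1.36 and -1.07, and BNIP3 between -0.28 and -0.06. The count of members at least 2-fold higher was 1 as deposited. It was 2 at equal totals and 2 with the trend removed, where HIF1A joined ADM, 2 with no minimum, where CA9 joined it, and 2 at 1.5-fold; 1.5-fold gave 4 lower members. For equal totals, 13.7% of all genes were 2-fold higher and 5.90% lower, and 10.7% and 6.74% with the trend removed. The median log2 ratio of the members was 0.081 with no minimum, which brings in the few reads of CA9 and EGLN3. For the other pathway genes, 3 were lower as deposited, 1 with a pseudocount of 1 FPKM, 1 at equal totals and 6 with no minimum; equal totals gave 19 higher genes and the trend removal 14. Depth limits CA9, EGLN3 and ANKRD37 most.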

Other observations

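HIF1A-AS1, a non-coding RNA gene on the strand opposite HIF1A, had 49 reads in the shSIK2 library and 3 in the scrambled library (4.38 and 0.27 FPKM), a ratio of 16.3 (5.27 to 81.9). It passed the minimum through the shSIK2 library alone, where it is higher. Its exons share 117 bases with those of HIF1A, and since the strand setting of the counting is not given, reads of the pair cannot be told apart there. HIF1A-AS2, whose exons share 0 bases with HIF1A, had 13 and 16 reads in the shSIK2 and scrambled libraries. SNAPC1, which lies 14.1 kb from HIF1A and encodes a subunit of the small nuclear RNA activating complex, was 2.78-fold lower (2.53 to 3.05). Next to EPAS1, the protein kinase C gene PRKCE was 5.83-fold lower (5.35 to 6.36), with 3.68 FPKM in the shSIK2 library and 21.5 FPKM in the scrambled library, while the remaining 8 genes within 1 Mb lay between -0.63 and 1.29 on the log2 scale. These genes were picked after their values were seen.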
